A study of Homo sapiens with 4 samples.

Results

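The genes described here are 10 members of a signalling route that runs from the cerebral cavernous malformation (CCM) complex to the Krüppel-like transcription factors. They were taken by gene symbol from 20137 genes measured in MDA-MB-231, a human triple-negative breast cancer cell line. CCM2, KRIT1, PDCD10 and HEG1 form the complex and its membrane anchor, MAP3K3, MAP2K5, MAPK7 and MEF2A the kinase cascade and its transcription factor, and KLF2 and KLF4 the factors at its end. Of these, CCM2 and KLF2 were chosen on their measured difference between the groups, CCM2 low and KLF2 high in the knockdown, so their values are given as a description with no test. The whole group was proposed with results of this comparison known.

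RNA was measured in 4 libraries. In 2 of them AURKA, the mitotic kinase Aurora A, had been knocked down (genotype AURKA KD, titles shA), and 2 were controls (genotype control, titles shC), which the design text calls mock-transfected. The 2 libraries of a group are called biological replicates, and whether they came from separate days or cultures is not said, so p-values measure the spread between these libraries, which may be technical. The labels give neither the hairpin sequences nor the number of clones, nor the time after knockdown.

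In endothelial cells, where the pathway is best known, the transmembrane protein HEG1 holds KRIT1 at cell junctions, and CCM2 is the adaptor that joins KRIT1 to PDCD10 and also binds the kinase MEKK3, the product of MAP3K3. The complex restrains MEKK3. When any of its subunits is lost, MEKK3 signals through the kinase MEK5 (MAP2K5) to ERK5 (MAPK7), ERK5 activates MEF2 factors, and these raise transcription of KLF2 and KLF4, which is the known consequence of CCM2 loss in the endothelium of cavernous malformations.

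Expression is given in FPKM, fragments per kilobase of transcript normalised to the depth of the library, summed over the transcripts of each gene. AURKA was at 124 and 99.1 FPKM in control replicates 1 and 2 and at 22.3 and 23.7 FPKM in the knockdown, which is 5.56-fold and 4.19-fold lower within replicates 1 and 2. Depth was estimated at 17400000 to 27800000 fragments per library, and 11738 to 12177 genes reached 1 FPKM. Vimentin, CD44, EGFR, AXL, CAV1 and MSN, markers that this mesenchymal-like line expresses highly, summed to between 2687 and 3155 FPKM, and of 6 markers of luminal, epithelial or HER2-positive tumours ESR1, PGR and CDH1 were under 0.3 FPKM in every library while ERBB2 (16.5 to 20.2 FPKM), FOXA1 (4.15 to 5.66 FPKM) and GATA3 (2.07 to 2.36 FPKM) passed the filter described below. AXL, a receptor tyrosine kinase, was at 292 and 318 FPKM in control cells and 227 and 231 FPKM in the knockdown (limma adjusted p 0.569, and 0.0469 with the replicate number as a term). Of 7 endothelial markers found, 0 passed the filter on low values, at least 1 FPKM in at least 2 libraries, their sum was 0.605 to 0.785 FPKM in control cells and 0.269 to 0.372 FPKM in the knockdown, and EMCN was at 0. Of the leukocyte markers CD3E was at 0 and CD68 alone passed the filter, at 64.1 FPKM in both controls and 47.6 and 52.6 FPKM in the knockdown. The pathway was thus read in a line without an endothelial expression profile.

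Sequences that bear on the members are the promoters of the pair of factors at the end of the route, since MEF2 factors act there, and the 3′ UTR sites of a short word that an earlier look at these data had found to be frequent among genes lower in the knockdown. The first are the 250 bases upstream of the start of KLF2 (chr19:16324576-16324825, plus strand) and of KLF4 (chr9:107489770-107490019, minus strand), from RefSeq on GRCh38.p14. Capitals mark a match to the MEF2 consensus, a palindrome that reads alike on both strands.

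KLF2 promoter: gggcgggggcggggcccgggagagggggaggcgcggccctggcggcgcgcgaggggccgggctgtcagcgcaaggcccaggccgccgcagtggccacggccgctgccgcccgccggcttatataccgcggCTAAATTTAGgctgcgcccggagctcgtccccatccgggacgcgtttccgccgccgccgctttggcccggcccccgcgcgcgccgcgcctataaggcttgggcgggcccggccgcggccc
KLF4 promoter: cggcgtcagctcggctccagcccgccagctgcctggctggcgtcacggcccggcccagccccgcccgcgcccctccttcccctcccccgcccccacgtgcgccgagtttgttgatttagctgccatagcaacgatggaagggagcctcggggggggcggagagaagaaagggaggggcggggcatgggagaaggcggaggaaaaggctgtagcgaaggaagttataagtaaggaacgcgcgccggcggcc

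The match in KLF2 lay 120 to 111 bases upstream of the start. The KLF4 window held no match. Windows of 300 bases (250 before and 50 after a start) were found for all 10 members, 18 windows in all, and 2 members had a match, KLF2 and MEF2A itself. The MEF2A match (CTAAAAATAG, 23 to 14 bases upstream) stood in 1 of its 3 windows. Among all 35116 promoter windows, 1050 (2.99%) held the consensus. A match describes letters in the window and says nothing of binding in these cells.

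The word is the 7 bases GAGACCT. It stands in the annotated 3′ UTRs of CCM2 and MEF2A, and the sites are shown from GENCODE 29 transcripts with the word in capitals.

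CCM2 site: gtaactctcaGAGACCTtaaaaagaag
MEF2A site: cagtgcaggaGAGACCTgcgcaccaca

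The CCM2 site begins at base 356 of the 410-base 3′ UTR of ENST00000258781 and leaves 48 bases to its end. The MEF2A site begins at base 2146 of the 3695-base 3′ UTR of ENST00000354410. Of the other 8 members 0 had the word in a searched 3′ UTR.

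Among the members of the CCM complex, CCM2, the adaptor of the complex (ENSG00000136280, chr7:45039783-45116068 in GRCh37, the build of the files' coordinates), was at 18.0 FPKM in control replicate 1, 18.2 in control replicate 2, 6.74 in knockdown replicate 1 and 3.97 in knockdown replicate 2. Both knockdown libraries lay far below both controls, which were almost equal, and the 2 knockdown libraries differed from each other. The means were 18.1 ± 0.19 and 5.36 ± 1.96 FPKM (SD, n = 2 each), 3.38-fold lower in the knockdown. The fold was 2.66 within replicate 1 and 4.59 within replicate 2. These values correspond to about 554 and 804 fragments in the controls and 243 and 195 in the knockdown, with a counting error of 3.53% to 7.16%. On the scale of log2(FPKM + 1) the mean difference was -1.62, the 7th lowest of 12136 genes that passed the filter. In bulk RNA a lower level in every cell and a loss in a share of the cells cannot be told apart.

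KRIT1, the subunit that links CCM2 to HEG1 and RAP1 (ENSG00000001631, chr7:91828282-91875480), was at 28.3 and 23.6 FPKM in control cells and 26.7 and 27.3 FPKM in the knockdown. The knockdown libraries lay between the controls. PDCD10, which joins the complex to the germinal centre kinases (ENSG00000114209, chr3:167401085-167452727), was at 70.0 and 85.6 FPKM in control cells and 68.6 and 74.7 FPKM in the knockdown. The groups overlapped here as well. The differences on the log2 scale were 0.06 (SE 0.14) for KRIT1 and -0.11 (SE 0.14) for PDCD10. In the limma fit over all tested genes the adjusted p was 0.977 and 0.940, and with the replicate number as a term it was 0.774 and 0.476.

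HEG1, the membrane receptor that recruits KRIT1 (ENSG00000173706, chr3:124684553-124774802), was at 19.6 and 16.2 FPKM in control cells and 24.6 and 20.6 FPKM in the knockdown. Each knockdown library was above both controls, and the step was alike within both replicate numbers, 0.31 and 0.33 on the log2 scale. The mean difference of 0.32 (1.26-fold, SE 0.16) had a limma adjusted p of 0.822, and 0.112 with the replicate number as a term. Both transcript rows of HEG1 were higher in the knockdown. Its main row, ENST00000311127, was at 18.7 and 15.6 FPKM against 21.9 and 19.5 FPKM. The short row ENST00000487661 was at 0.952 and 0.617 FPKM against 2.64 and 1.18 FPKM.

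The ratio of CCM2 to its partners summarises this within each library. CCM2 stood at 0.634 and 0.773 of the KRIT1 level in the controls and at 0.253 and 0.146 in the knockdown. Against PDCD10 the ratio was 0.257 and 0.213 in the controls and 0.0982 and 0.0531 in the knockdown. The ratio of KRIT1 to PDCD10 was 0.404 and 0.275 in the controls, and the knockdown values of 0.389 and 0.365 lay between them. These ratios are of FPKM levels, which are per length. The lower CCM2 ratios follow from the choice of CCM2 for its difference.

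**Figure D1:**
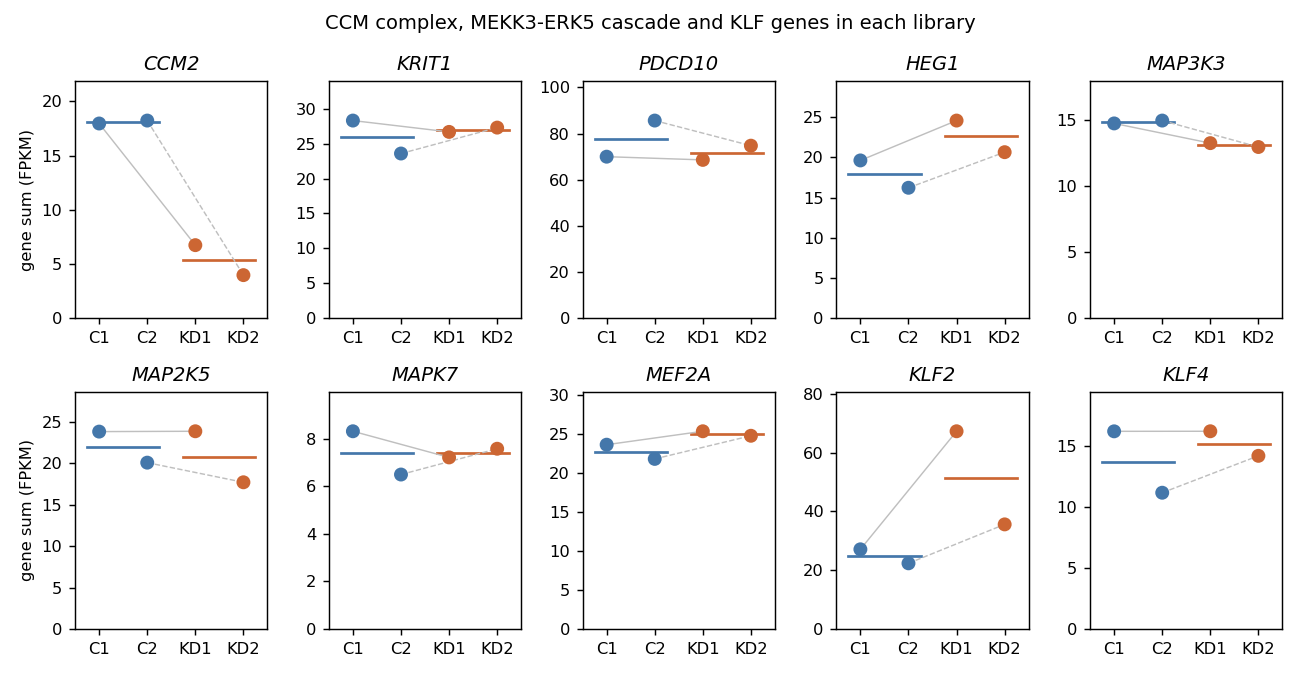
Gene sums in FPKM (y axis, from 0, scaled to each gene) of the 10 members in control replicates 1 and 2 (C1 and C2, blue) and AURKA knockdown replicates 1 and 2 (KD1 and KD2, orange). Points are libraries, thick bars are group means, and thin lines join libraries with the same replicate number (solid for 1, dashed for 2); CCM2 drops from about 18 FPKM to 6.74 and 3.97 FPKM, KLF2 is highest in KD1 at 67.2 FPKM, and KRIT1, PDCD10, MAP2K5, MAPK7 and KLF4 overlap.

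To see which transcripts carried the CCM2 level, the rows beneath the gene sum were examined. The tables hold 6 transcripts of CCM2, all coding, of which 3 start at the same upstream promoter and differ in which exons they skip. The longest of these, ENST00000258781 (10 exons, 444 codons), was at 8.99 and 13.5 FPKM in control cells and 3.39 and 2.42 FPKM in the knockdown. It carried 50.1% and 73.8% of the gene sum in the controls and 50.3% and 61.0% in the knockdown, so its share overlapped between the groups. ENST00000544363 (8 exons, 353 codons) was at 2.35 and 2.24 FPKM in the controls, was listed at 0 in knockdown replicate 1 and was at 0.386 FPKM in knockdown replicate 2. ENST00000541586 (9 exons, 386 codons) was at 5.30 and 1.77 FPKM in control cells and 2.188 and 0.210 FPKM in the knockdown, and its groups overlapped. It was lower in the knockdown within each replicate number.

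The sum over the 3 transcripts from the upstream start was 16.6 and 17.5 FPKM in control cells and 5.58 and 3.02 FPKM in the knockdown, 2.98-fold and 5.78-fold lower within replicates 1 and 2. The other 3 rows start further downstream. ENST00000381112 (10 exons, 465 codons), which starts 27449 bases into the gene, was at 0.928 and 0.511 FPKM in control cells and 0.521 and 0.716 FPKM in the knockdown. The partial row ENST00000480382 was between 0.236 and 0.638 FPKM, and ENST00000474617 was listed at 0 in every library. Together these rows gave 1.32 and 0.770 FPKM in control cells and 1.16 and 0.953 FPKM in the knockdown, and the groups overlapped. Their share of CCM2 was 7.34% and 4.22% in the controls and 17.2% and 24.0% in the knockdown. These low rows rest on about 21 to 37 fragments of ENST00000381112 per library, assigned between transcripts that share most of their exons, so the split between starts was imprecise.

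**Figure D2:**
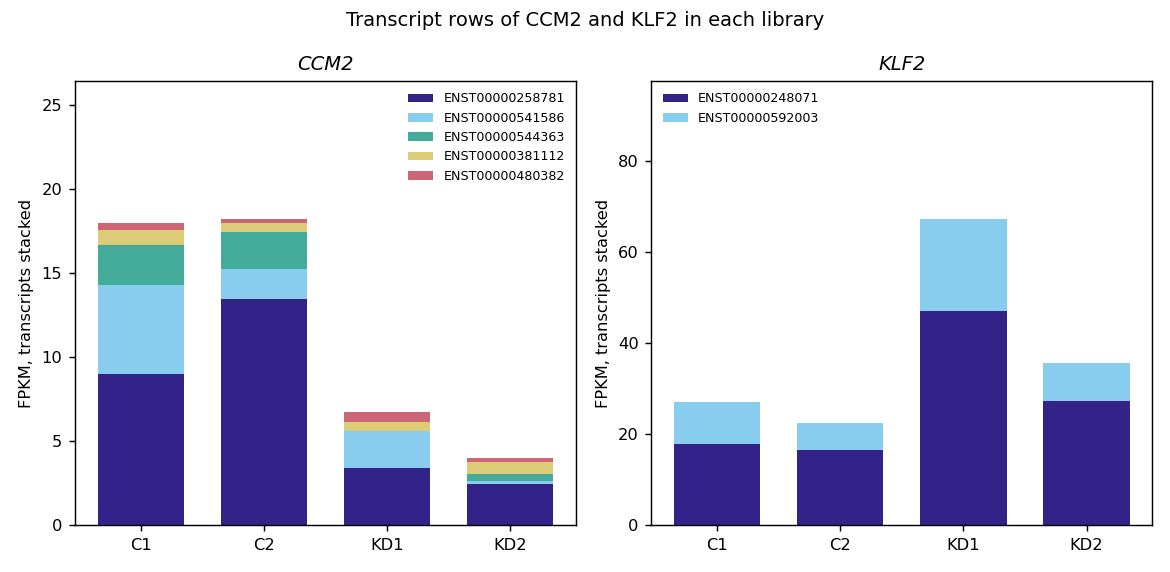
Transcript rows of CCM2 (left) and KLF2 (right) stacked to the gene sum in FPKM (y axis, from 0) for control replicates 1 and 2 (C1, C2) and AURKA knockdown replicates 1 and 2 (KD1, KD2). The CCM2 rows ENST00000258781 and ENST00000544363 are lower in both knockdown libraries than in both controls, ENST00000541586 overlaps, ENST00000381112 is between 0.511 and 0.928 FPKM, and both KLF2 rows are highest in KD1.

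In the kinase cascade, MAP3K3, which encodes MEKK3, the kinase that CCM2 binds (ENSG00000198909, chr17:61699774-61778532, a locus the files join with LIMD2), was at 14.8 and 15.0 FPKM in control cells and 13.3 and 13.0 FPKM in the knockdown. Both knockdown libraries were slightly below both controls. The mean difference was -0.17 on the log2 scale (SE 0.13), with a limma adjusted p of 0.892 and of 0.377 with the replicate number as a term. Its highest row, ENST00000361357, was at 5.76 and 4.91 FPKM against 5.60 and 5.31 FPKM and overlapped. The next, ENST00000361733, was at 4.64 and 4.62 FPKM against 3.36 and 3.96 FPKM. The lower gene sum therefore did not show in the highest transcript.

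MAP2K5, the MEK5 kinase that phosphorylates ERK5 (ENSG00000137764, chr15:67835046-68099461), was at 23.8 and 20.1 FPKM in control cells and 23.9 and 17.7 FPKM in the knockdown. Replicate 2 was the lower library in both groups. MAPK7, which encodes ERK5 (ENSG00000166484, chr17:19240866-19290553, a locus joined with B9D1 and MFAP4), was at 8.31 and 6.49 FPKM in control cells and 7.21 and 7.58 FPKM in the knockdown. It was the lowest of the 10 members in the controls, and its knockdown libraries lay between the controls. The mean log2 difference was -0.08 (SE 0.19) for MAP2K5 and 0.007 (SE 0.18) for MAPK7. The limma adjusted p was 0.977 and 0.998, and with the replicate number as a term 0.656 and 0.983.

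MEF2A, a transcription factor that ERK5 activates (ENSG00000068305, chr15:100017369-100258029, a locus joined with DKFZP779J2370 and AC015660.1), was at 23.6 and 21.8 FPKM in control cells and 25.3 and 24.8 FPKM in the knockdown. Both knockdown libraries were above both controls by a small step. The mean difference was 0.14 (SE 0.13), with a limma adjusted p of 0.911 and of 0.421 with the replicate number as a term. The rows beneath this sum moved in both directions. ENST00000354410, which ends in the long 3′ UTR, was at 2.83 and 4.99 FPKM in control cells and 5.91 and 6.82 FPKM in the knockdown. ENST00000449277 was at 0.00806 and 0.565 FPKM against 0.525 and 3.24 FPKM and overlapped. Of the 9 MEF2A rows that reached 1 FPKM in any library, 1 was higher without overlap, 3 were lower and 5 overlapped. No such share over all transcript rows is given here, so these counts only describe the rows.

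Of the 8 members other than CCM2 and KLF2, limma called 0 at an adjusted p under 0.05, against 0% of the 12136 tested genes, of which 773 had an unadjusted p under 0.05. With the replicate number as a term it again called 0 of 8, against 3.44% of all tested genes (1.53% higher and 1.9% lower in the knockdown). Their median log2 difference was 0.03, with a range of -0.17 to 0.32, beside a median of 0.01 over all tested genes. In 5 of the 8 the mean difference was above 0 and in 3 below. Among these 8 the groups did not overlap for HEG1 and MEF2A, which were higher in the knockdown, in a background of 19.4% of tested genes. MAP3K3 was lower without overlap, in a background of 16.6%. The groups of CCM2 and KLF2 were also apart, which their choice on their difference implies. A p that misses the threshold does not show that the levels were alike.

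**Figure D3:**
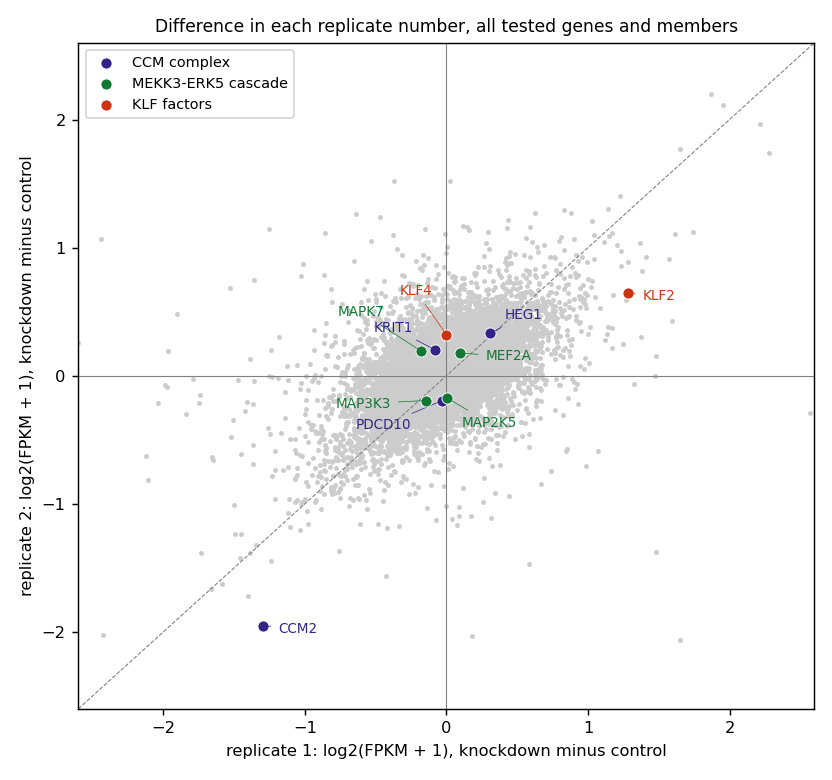
Difference in log2(FPKM + 1), knockdown minus control, within replicate 1 (x axis) and within replicate 2 (y axis), for the 12136 tested genes (grey, 9 of them outside the axes) and the 10 members (coloured by role); the dashed line marks equal differences. CCM2 at -1.29 and -1.95 and KLF2 at 1.28 and 0.65 lie at opposite corners and the other 8 members lie in the central cloud.

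At the end of the route, KLF2, a zinc finger factor that holds endothelium and lymphocytes in a quiescent state (ENSG00000127528, chr19:16435627-16438685), was at 27.1 and 22.3 FPKM in control cells and 67.2 and 35.6 FPKM in the knockdown. Both knockdown libraries lay above both controls, and knockdown replicate 1 was far above knockdown replicate 2. The means were 24.7 ± 3.36 and 51.4 ± 22.4 FPKM (SD, n = 2 each), 2.08-fold higher in the knockdown. The difference was 2.48-fold within replicate 1 and 1.59-fold within replicate 2. About 715 and 881 fragments stood behind the control values and 2264 and 1661 behind the knockdown values. The mean log2 difference of 0.97 was the 32nd highest of the 12136 tested genes.

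KLF2 has 2 transcript rows. ENST00000248071 (3 exons, 355 codons), the full-length form, was at 17.8 and 16.4 FPKM in control cells and 47.0 and 27.3 FPKM in the knockdown. ENST00000592003 (2 exons, 78 codons) was at 9.30 and 5.94 FPKM in control cells and 20.2 and 8.26 FPKM in the knockdown, where the second library lay below control replicate 1. The full-length row held 65.6% and 73.4% of the gene sum in the controls and 69.9% and 76.8% in the knockdown. The groups overlapped in this share, and both rows were higher in the knockdown within each replicate number.

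KLF4, a close relative of KLF2 and the second factor known to rise when CCM2 is lost (ENSG00000136826, chr9:110247132-110252763), was at 16.19 and 11.16 FPKM in control cells and 16.19 and 14.18 FPKM in the knockdown. Within replicate 1 the groups had the same value, within replicate 2 the knockdown was 0.32 higher on the log2 scale, and the groups overlapped. The mean difference was 0.16 (SE 0.21), with a limma adjusted p of 0.940 and of 0.467 with the replicate number as a term. The ratio of KLF2 to KLF4 was 1.67 and 2.00 in the controls and 4.15 and 2.51 in the knockdown. Its groups did not overlap, and KLF2 carried the difference. The higher ratios in the knockdown follow from the choice of KLF2 for its difference.

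The 2 genes chosen on their difference are set side by side here as a description only. CCM2 was lowest in knockdown replicate 2, the library with the smaller KLF2 level, and KLF2 was highest in knockdown replicate 1, where CCM2 was less reduced. In the controls KLF2 was likewise lower in replicate 2 (22.3 FPKM) than in replicate 1 (27.1 FPKM). On the log2 scale the CCM2 differences were -1.29 and -1.95 in replicates 1 and 2 and those of KLF2 were 1.28 and 0.65. With 2 libraries a group no relation between the levels can be tested.

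In order of level, the controls ran PDCD10, KRIT1, KLF2, MEF2A, MAP2K5, CCM2, HEG1, MAP3K3, KLF4 and MAPK7. KLF2, MEF2A and MAP2K5 each overlapped with the gene above, as did HEG1 with CCM2 and KLF4 with MAP3K3. In the knockdown KLF2 moved to the place below PDCD10 and CCM2 to the lowest place. There only MAP2K5 overlapped with the gene above it, HEG1.

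For the 3′ UTR word shown above, CCM2 is one of 1379 genes with GAGACCT in a searched 3′ UTR among 11657 tested genes that have one (11.8%). The median log2 difference was -0.07 in genes with the word and 0.02 in genes without it. With the replicate number as a term, limma called 6.67% of genes with the word lower and 0.725% higher in the knockdown, against 1.30% lower and 1.64% higher among genes without it. The word was picked for being frequent among genes lower in these same data, so this split follows from its choice and tests nothing. All 5 CCM2 transcripts with a searched 3′ UTR hold the word, and their sum was 17.6 and 18.0 FPKM in control cells and 6.10 and 3.74 FPKM in the knockdown. One of these is ENST00000381112, the row from the downstream start whose groups overlapped.

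MEF2A holds the same word in 4 of 6 searched transcripts. Its 4 rows with the word summed to 5.62 and 6.29 FPKM in control cells and 10.8 and 10.5 FPKM in the knockdown. The other MEF2A rows summed to 18.0 and 15.5 FPKM in control cells and 14.6 and 14.3 FPKM in the knockdown. Some of these other rows had no 3′ UTR that was searched. The sum of the MEF2A rows with the word was thus higher in both knockdown libraries. Of these rows ENST00000354410 and ENST00000557942 were higher without overlap, and ENST00000338042 and ENST00000449277 overlapped. In knockdown replicates 1 and 2 ENST00000338042 was at 3.44 and 0.166 FPKM and ENST00000449277 at 0.525 and 3.24 FPKM, so the split between these rows varied between libraries. The part of the word in the CCM2 and MEF2A levels was not tested.

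Genes around the members were described next. Lists of 75 other genes were drawn up by role, with earlier results of these data known, and 61 of them passed the filter. Limma called 0 of the 61, of which 4 had an unadjusted p under 0.05, and with the replicate number as a term it called 1, which was higher, against 3.44% of all tested genes. The mean difference was above 0 in 25 and below 0 in 36. The groups did not overlap for 9 that were higher and 13 that were lower. These counts stand beside 19.4% and 16.6% of all tested genes. The median log2 difference over the 61 genes was -0.06, and 0.0002 without control replicate 1, a setting that was added after seeing the data here and for the lists below.

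Partners of the CCM complex, such as the RAP1 GTPases that recruit KRIT1 and the STK kinases and striatins that bind PDCD10, had a median log2 difference of -0.02 over 11 tested genes, which was -0.05 without control replicate 1, and 0 were called in either fit. RAP1B, the most abundant of them, was at 128 and 156 FPKM in control cells and 108 and 137 FPKM in the knockdown, and its groups overlapped. The 15 kinases and partners of the MEKK, p38 and ERK5 arms and of MEF2, all tested, had a median of -0.11, which was 0.04 without control replicate 1, and 0 were called in either fit. CDC37, the kinase co-chaperone with the highest level there, was at 240 and 256 FPKM against 237 and 228 FPKM.

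Of the 16 other KLF genes 11 were tested, 0 were called in either fit, and their median was 0.006, which was 0.16 without control replicate 1. KLF6, the most abundant of them, was at 65.6 and 53.5 FPKM in control cells and 70.7 and 71.9 FPKM in the knockdown, with a limma adjusted p of 0.825 and of 0.185 with the replicate number as a term. KLF1 and KLF14 were listed at 0 in every library. KLF15, named after its values were seen, was at 1.61 and 1.38 FPKM against 0.594 and 0.839 FPKM, lower without overlap and with a limma adjusted p of 0.781 and of 0.160 with the replicate number as a term.

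Of 17 genes known as targets of KLF2 and KLF4, mostly from endothelium, 10 passed the filter and were tested. Their median log2 difference was -0.42, which was -0.71 within replicate 1 and -0.16 within replicate 2. Limma called 0 of the 10 in either fit, and the mean difference was above 0 in 3 and below 0 in 7. Control replicate 1 was the highest library for 7 of the 10. TXNIP, an inhibitor of thioredoxin named after its values were seen, was at 289 and 24.3 FPKM in control cells and 34.3 and 12.4 FPKM in the knockdown. THBD, the anticoagulant receptor thrombomodulin and a classical KLF2 target, also named after its values were seen, was at 12.3 and 5.45 FPKM against 5.48 and 3.85 FPKM. In both genes control replicate 1 alone was high and the groups overlapped. Both were lower in the knockdown within replicate 2 as well, 1.96-fold for TXNIP and 1.41-fold for THBD. The limma adjusted p was 0.850 for TXNIP and 0.822 for THBD, and with the replicate number as a term 0.0546 and 0.0726. Without overlap, 1 of the 10 was higher and 2 were lower, beside 19.4% and 16.6% of all tested genes. They are named here after their values were seen. NOV, a matricellular protein, was at 7.83 and 9.91 FPKM in control cells and 10.95 and 12.2 FPKM in the knockdown. ADAMTS1, a secreted protease, was at 6.67 and 2.14 FPKM against 1.44 and 1.02 FPKM, and CDKN1A, the cell cycle inhibitor p21, at 16.4 and 9.64 FPKM against 8.50 and 8.33 FPKM. CALU, the most abundant gene of the list, was at 147 and 115 FPKM against 139 and 129 FPKM. The list median became -0.17 once control replicate 1 was left out. The size of the list median thus differed between the replicate numbers. The list was not split by the direction in which KLF2 or KLF4 acts on each gene. Its median therefore cannot be set against the KLF2 level.

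The 1 gene called among the 61 was RHOB, a stress-inducible small GTPase. It was at 21.6 and 15.9 FPKM in control cells and 38.4 and 28.4 FPKM in the knockdown. Each knockdown library was above both controls, and the difference was 0.80 on the log2 scale within both replicate numbers. Its limma adjusted p was 0.569, and 0.0105 with the replicate number as a term. With that term and no filter on low values, limma called 0 of 72 pathway genes (12 at an unadjusted p under 0.05), so this call was lost.

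**Figure D4:**
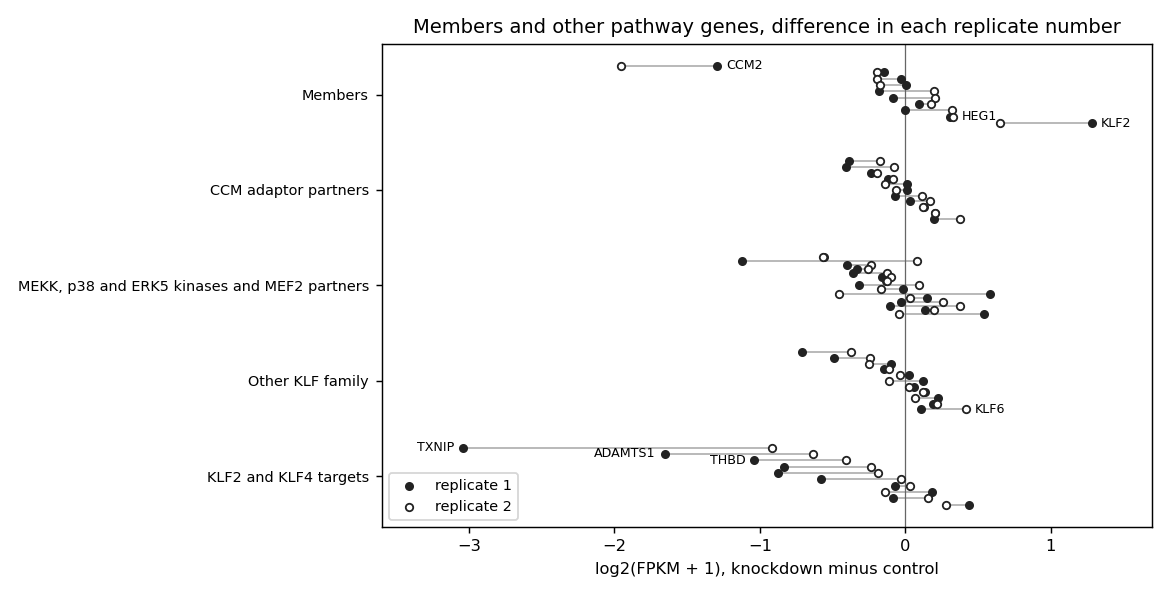
Difference in log2(FPKM + 1), knockdown minus control (x axis), within replicate 1 (filled) and replicate 2 (open) for each tested gene of the members and of 4 lists of other pathway genes (rows), with a line joining the 2 differences of a gene and 7 genes labelled. CCM2 and KLF2 lie away from 0 on the same side in both replicates, and in the list of KLF2 and KLF4 targets the replicate 1 differences reach -3.04 for TXNIP where replicate 2 gives -0.92.

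Genes with profiles like those of CCM2 and KLF2 were named by the smallest root mean square distance between log2(FPKM + 1) values, each gene centred on its mean over the 4 libraries. Among the nearest to CCM2 were the integrin subunit ITGA2B (distance 0.156), the keratin-associated protein KRTAP2-3 (0.229), KCTD12 (0.273) and LRRIQ1 (0.320). KRTAP2-3 was at 22.7 and 27.6 FPKM in control cells and 7.96 and 7.67 FPKM in the knockdown. ITGA2B was at 3.36 and 2.49 FPKM in control cells and 0.454 and 0.133 FPKM in the knockdown. Its folds within replicates 1 and 2 were 7.39 and 18.7, against 2.66 and 4.59 for CCM2. At such low levels its closeness in log2(FPKM + 1) depends on the added 1.

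Nearest to KLF2 were the protease inhibitor SLPI (0.083), the Notch target and transcriptional repressor HES1 (0.112), the NADPH oxidase NOX5 (0.125), the integrin subunit ITGB3 (0.137) and S100A4 (0.148). HES1 was at 20.1 and 14.1 FPKM in control cells and 40.5 and 22.7 FPKM in the knockdown. S100A4, a calcium-binding protein linked to cell motility, was at 37.2 and 24.3 FPKM in control cells and 85.6 and 38.1 FPKM in the knockdown. These 5 genes, like KLF2, were highest in knockdown replicate 1, which their choice by profile implies. The distances describe 4 libraries and share their depth and scaling. For low genes they also depend on the added 1, as for SLPI (1.60 and 0.996 FPKM in control cells) and NOX5 (1.38 and 0.994 FPKM).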

How the data were processed

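Members and gene lists were chosen with earlier results of these data known. Each of the 4 deposited tables covers 1 library and lists 81493 transcripts. The header names no unit, and the deposited values were read as FPKM from the values themselves. The submitters' processing notes list HTSeq 0.8.0, bcl2fastq 2.19 and hg38, and no program for the FPKM (not given in the sources used here). Loci in the files follow GRCh37 (one on chromosome 4 ends at 191013719, past that chromosome's end in GRCh38). No strand setting is stated, so reads of overlapping genes cannot be told apart.

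Tables were joined by transcript ID (81412 transcripts in all 4) and summed by gene ID. Tables of one replicate number have the same row order and loci, and 1707 transcripts carry another locus between the numbers, so each number was quantified in its own run with 1 library of each group. Over genes, the difference of replicate 2 from replicate 1 correlated between the control and the knockdown groups (r = 0.645, across genes, which are not independent). The labels do not say what a number marks, so the main fit has no block, and the fit with the number as a term is printed beside it. The SEs given for members are those of the main fit. Over the 8 members other than CCM2 and KLF2 they were 0.13 to 0.21, and 0.083 to 0.14 with the number as a term.

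Limma-trend (limma 3.58.1, R 4.3.3) was fitted to log2(FPKM + 1) of the 12136 genes that reached 1 FPKM in 2 or more libraries, two-sided, with Benjamini-Hochberg adjustment at 0.05. The planned edgeR test needs counts and was not run. Fold changes on the log2 scale understate those of low genes. The script was tested on simulated data. The files hold no read totals. Depth was estimated from the value of 1 fragment in single-transcript genes (76 to 103 of 440 to 480 genes within 5%, against a median of 1 to 2 genes at other constants), so fragment numbers are rough and counting errors cover counting only. Tables were handled with Python 3.11.15 and pandas 2.3.3. Transcript structure and 3′ UTRs came from GENCODE 29 by transcript ID, and promoters from RefSeq by symbol. No protein sequences were used.

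Named genes are all members, list genes called in either fit, the most abundant gene of each pathway list, and the 5 nearest profiles to CCM2 and to KLF2. Others are said to be named after their values were seen. PECAM1 and KLF18 were not analysed here, and some items of the lists and of the nearest profiles are not reported here. Alternatives varied the pseudocount, filter, scaling, block, transcript choice and libraries.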

Additional observations from a re-analysis of the deposited data

How the results depend on the processing

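CCM2 and KLF2 kept their direction in all 16 alternatives each, with log2 differences of -1.94 to -1.30 and 0.51 to 1.42, and HEG1 kept its own (0.19 to 0.45). The groups of these genes do not overlap, so leaving out 1 library could not turn their direction. The replicate block and the filter leave a log2 difference unchanged. The count of 16 therefore does not measure how firm the direction is, and CCM2 and KLF2 were chosen on it. The 8 other members gave 128 alternative values, of which 10 turned direction. Another 2 moved by more than the replicate SD without turning (KRIT1 0.22 and MEF2A 0.22, highest transcript only). The cause was not tested. Leaving out 1 library gave -0.066 to 0.19 for KRIT1, -0.25 to 0.033 for PDCD10, -0.29 to 0.12 for MAP2K5, -0.15 to 0.16 for MAPK7 and -0.089 to 0.41 for KLF4, each range crossing 0. The turned values were those of KRIT1, PDCD10, MAPK7 and KLF4 without control replicate 2, of MAP2K5 without control replicate 1 (0.033) and without AURKA knockdown replicate 2 (0.12), and of MAPK7 without AURKA knockdown replicate 2 (-0.025). MAP3K3 turned from -0.17 to 0.030 with its highest transcript only, a move larger than its replicate SD of 0.018. MAPK7 was at -0.0035 with median-of-ratios scaling, with and without the replicate block. The share of the main transcript, knockdown minus control, was -6.27 percentage points for CCM2 (-18.1 to 5.59 leaving out 1 library) and 3.85 for KLF2 (-0.01 to 7.71).

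Limma called 0 genes (773 at an unadjusted p under 0.05), 417 with the replicate block (186 higher, 231 lower), 1 at a filter of 5 FPKM, 2 with median-of-ratios scaling, 3 scaled to a sum of 1000000, and 6 to 15 leaving out 1 library, where the lone sample is assumed to vary like the others (6 without control replicate 1, 15 without control replicate 2, 7 and 10 without AURKA knockdown replicates 1 and 2). It called 0 with a pseudocount of 0.1 and 0 with no filter. Alternatives added after seeing the data gave, with the replicate block, 287 genes at a pseudocount of 0.1, 0 with no filter, 424 at 5 FPKM, 1169 with median-of-ratios scaling and 533 scaled to a sum of 1000000. Of the 61 pathway genes, 1 was called with the replicate block (RHOB), and 0 to 1 leaving out 1 library (TXNIP without control replicate 2). The block called 0 with no filter, 1 with a pseudocount of 0.1 (RHOB), 2 at 5 FPKM (RHOB and TXNIP), 4 scaled to a sum of 1000000 and 7 with median-of-ratios scaling (RHOB higher, and ADAMTS1, CDKN1A, DUSP5, MEF2B, THBD and TXNIP lower, named after their values were seen). Depth limits low transcript rows, such as those of CCM2 from downstream starts.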
